A study of Mus musculus with 2 samples.

Results

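The 10 genes described here are immediate early genes, which many cell types switch on within minutes of a stimulus without new protein synthesis: Fos, Fosb, Jun, Junb, Egr1, Ier2, Atf3, Nr4a1, Klf4 and Btg2. They were chosen by name, as 10 of the 21853 mouse genes with a protein-coding start. The rule uses no measured value, but the choice was made with earlier results of these data known. Open chromatin was mapped by DNase-seq, which sequences the ends that the enzyme DNase I leaves where it can reach the DNA. The tissue was limb from healthy mouse embryos aged 11.5 days, strain B6NCrl, pooled male and female, with no treatment named. Both biological replicates belong to this 1 group, so there is no contrast between conditions, no test was run, and each value is given per library beside the same quantity over all protein-coding genes. Each list of accessible regions comes from whole tissue, in which a stronger region in few cells and a weaker region in many cells cannot be told apart.

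Immediate early genes are the first transcriptional response to growth factors, stress and depolarisation. MAP kinases and the kinases of CREB act on transcription factors that already sit at the promoter. Serum response factor (SRF) binds the CArG box of the serum response element, with ETS family partners such as ELK1, and CREB binds the cAMP response element (CRE). Most of the products are themselves transcription factors: FOS and JUN proteins pair to form AP-1, EGR1 and KLF4 are zinc finger proteins, ATF3 is a leucine zipper protein of the ATF/CREB family, and NR4A1 is an orphan nuclear receptor. BTG2 restrains cell division and acts on messenger RNA decay, and IER2 is a small nuclear protein.

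Promoter DNA that was open in both libraries is shown for 6 of the genes. Fos and Fosb are shown because their stretches hold CArG box and CRE letters, through which immediate early genes are known to be switched on. The others are shown for contrast. Each stretch lies inside a DNase peak shared by both replicates, in GRCm38 (mm10) with the letters from RefSeq, and is printed 5′ to 3′ on the strand of its gene, without annotated bases of untranslated regions. Stretches can still lie in an intron, as that of Nr4a1 does in its own gene and that of Jun in the noncoding gene Junos. Capitals mark, on either strand, the core CRE letters (TGACG), the CArG box (CC, 6 letters A or T, GG) and the EGR site (GCGTGGGCG or GCGGGGGCG). They also mark the CCAAT box and the TATA box (TATAAA). Only exact matches to these letters are marked. The first Fos stretch is chr12:85473516-85473685 (+), from −374 to −205 bp of the coding start. The second is chr12:85473796-85473889 (+), from −94 to −1 bp. The Fosb stretch is chr7:19310276-19310445 (−), from −394 to −225 bp.
Fos, CArG box region: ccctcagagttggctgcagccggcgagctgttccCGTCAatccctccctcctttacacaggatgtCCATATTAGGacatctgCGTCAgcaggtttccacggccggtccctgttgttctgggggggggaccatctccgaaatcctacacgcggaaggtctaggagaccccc
Fos, start region: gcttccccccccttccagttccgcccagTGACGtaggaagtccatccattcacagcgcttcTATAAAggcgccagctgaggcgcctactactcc
Fosb, CArG box region: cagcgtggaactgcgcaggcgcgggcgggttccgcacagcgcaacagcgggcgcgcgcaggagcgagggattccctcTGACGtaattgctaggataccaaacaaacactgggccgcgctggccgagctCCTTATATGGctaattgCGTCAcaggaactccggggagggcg

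The next 4 stretches are shown for contrast, since they hold no exact match to the CArG box letters. Sites that differ from those letters were not searched. They are chr4:95052256-95052425 (−) of Jun, from −203 to −34 bp, chr8:84978749-84978865 (−) of Junb, from −147 to −31 bp, chr15:101266636-101266805 (+) of Nr4a1, from −210 to −41 bp of its second coding start, and chr1:134079156-134079305 (−) of Btg2, from −185 to −36 bp.
Jun: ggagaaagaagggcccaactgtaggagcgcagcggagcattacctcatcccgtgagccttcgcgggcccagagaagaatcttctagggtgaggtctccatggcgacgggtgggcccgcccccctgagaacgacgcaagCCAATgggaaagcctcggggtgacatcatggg
Junb: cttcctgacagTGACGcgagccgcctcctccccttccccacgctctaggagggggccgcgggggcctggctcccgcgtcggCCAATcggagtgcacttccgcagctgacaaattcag
Nr4a1: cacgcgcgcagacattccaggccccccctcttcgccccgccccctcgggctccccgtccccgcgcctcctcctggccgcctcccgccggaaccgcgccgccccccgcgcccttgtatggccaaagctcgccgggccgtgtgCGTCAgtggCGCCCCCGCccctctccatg
Btg2: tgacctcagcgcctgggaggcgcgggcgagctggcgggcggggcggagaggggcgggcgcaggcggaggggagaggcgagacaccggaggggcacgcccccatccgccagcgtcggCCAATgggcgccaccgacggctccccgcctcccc

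Every one of the 10 genes had an open promoter in both libraries. A promoter peak is a deposited peak whose centre lies within 1 kb of one of the gene's protein-coding starts, and a shared peak is the merged span of overlapping peaks of both replicates. All 10 genes had a shared promoter peak, against 66.8% of all protein-coding genes. The strongest promoter peak of all 10 lay at or above the 90th percentile of signal in both libraries, against 44.6% of genes. That level was set after values had been seen, and the lowest of the 10, Atf3, lay just above it at 90.5 and 91.2. The 10 of 10 is therefore no separate result. The 44.6% is a share of all protein-coding genes, including those without a promoter peak. The percentile is the rank of a peak's deposited signal among all peaks of its own library, and the 90th percentile corresponded to a signal of 93 in replicate 1 and 88 in replicate 2. Promoter peaks as a class are strong, so the comparison with genes that have one is the narrower one. The median percentile of the strongest promoter peak was 96.1 over the 10 genes and 95.1 over the 14658 genes with a promoter peak in both libraries, whose middle 50% ran from 86.7 to 97.8. By this measure the immediate early genes were not set apart from other genes with an open promoter, and 6 of them lay above that median.

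**Figure D1:**
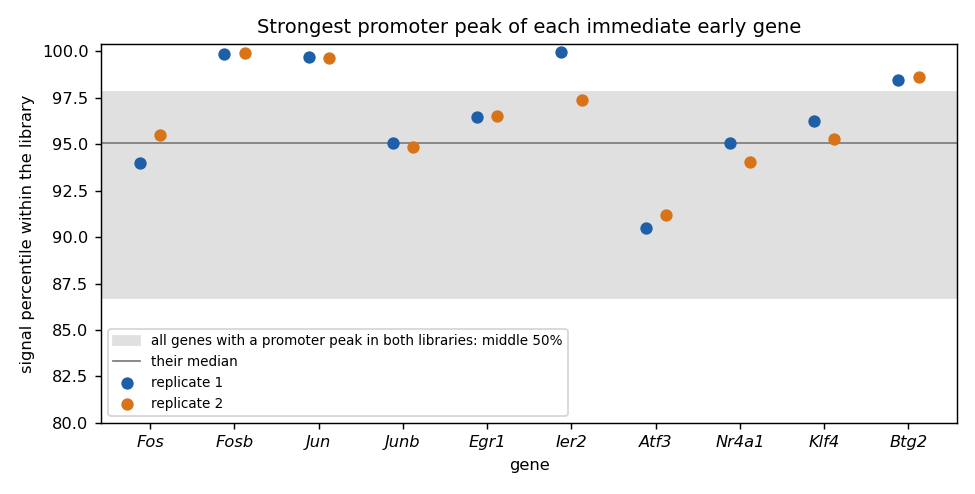
Signal percentile of the strongest promoter peak (vertical axis, rank within the library) for each immediate early gene, with 1 point per replicate, over the middle 50% and the median of all genes with a promoter peak in both libraries. Fosb and Jun lie near the top in both replicates, Ier2 in replicate 1, and Atf3 is lowest at 90.5 and 91.2.

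The AP-1 subunit genes divided into a strong and a middling pair. Fosb had its strongest promoter peak at +889 bp from the third coding start, with a signal of 133 in replicate 1 and 136 in replicate 2, at percentiles 99.8 and 99.9. That peak lies inside the gene, over an exon of a noncoding transcript of Fosb, and only 81 genes had a stronger one. The peak printed above, upstream of the first start, was weaker at 119 and 125, and still stood at percentiles 97.6 and 98.6. Jun, whose product is the main partner of FOS, had a promoter peak at −119 bp with signals of 131 and 132, both at percentile 99.7, and 354 genes had a stronger one. Both values of Fosb and both of Jun lay above the middle 50% of genes.

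Fos and Junb were close to the median gene with an open promoter. Fos, the archetype of the group, carried 4 shared promoter peaks, and the strongest, at −9 bp over the start itself, had signals of 104 and 110 at percentiles 94.0 and 95.5. The Fos peak that holds the CArG box, centred at −289 bp, had signals of 84 and 90, at percentiles 85.6 and 90.9. Each replicate thus separated the serum response region of Fos from its start as 2 peaks, the upstream one weaker. The remaining Fos promoter peaks, at −869 and +751 bp, reached signals of 58 and 34 and of 59 and 52. Junb, a JUN family member with weaker transactivation than JUN, had 1 shared promoter peak, at −63 bp, with signals of 108 and 107. Its percentiles of 95.1 and 94.9 exceeded or equalled those of 49.4% of genes with a promoter peak, and the figure for Fos was 48.0%.

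Egr1 had the most shared promoter peaks of the group, 5 over its 2 coding starts, which lie 1384 bp apart. The strongest shared one was at −326 bp from the second start, with signals of 111 and 115 at percentiles 95.8 and 96.5. The next, at −106 bp from the second start, had signals of 112 and 109, and the one at +158 bp from the first start had 114 and 105. The ranges of these 3 peaks over the replicates overlapped, and the highest single peak was a different one in each library. The 2 others, at −666 and +484 bp from the second start, had signals of 89 and 95 and of 60 and 45. Egr1 is annotated on chromosome 18 from 34859823 to 34864984, and no sequence of it is printed.

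The other transcription factor genes were Klf4, Nr4a1 and Atf3. Klf4, a zinc finger factor of epithelia and of reprogramming, had its strongest promoter peak at −165 bp from its first start, with signals of 113 and 109 at percentiles 96.3 and 95.3. Its 2 other shared promoter peaks, at −845 and +272 bp, did not exceed a signal of 61 in either library. Nr4a1 and Atf3 each have 2 coding starts far apart, and in both the downstream start was the more open one. At the second start of Nr4a1, 12577 bp downstream of the first, the peak had signals of 108 and 103 at percentiles 95.1 and 94.0. At its first start the values were 74 and 64, at percentiles 79.5 and 78.0, so both replicates gave the same order. The second start of Atf3, 34699 bp downstream, carried 4 shared promoter peaks, the strongest at +9 bp with signals of 94 and 91. Around the first start of Atf3 there were 0 peaks within 1 kb in either library, and the nearest lay 1408 bp away in replicate 1 and 1428 bp in replicate 2. The Atf3 value was the lowest of the 10, and 32.6% of genes with a promoter peak were at or below it.

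Ier2 and Btg2, the members outside the known DNA-binding families, were both strong. The promoter peak of Ier2 at −29 bp had a signal of 136 in replicate 1, at percentile 99.9, and 119 in replicate 2, at 97.4. This was the widest gap between replicates at any strongest promoter peak of the group, with replicate 1 above the middle 50% of genes and replicate 2 inside it. Btg2 had a single promoter peak in each library, at −101 bp, with signals of 123 and 125 at percentiles 98.5 and 98.6. Its promoter was the simplest of the group and 83.6% of genes with a promoter peak were at or below its level, against 85.1% for Ier2.

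**Figure D2:**
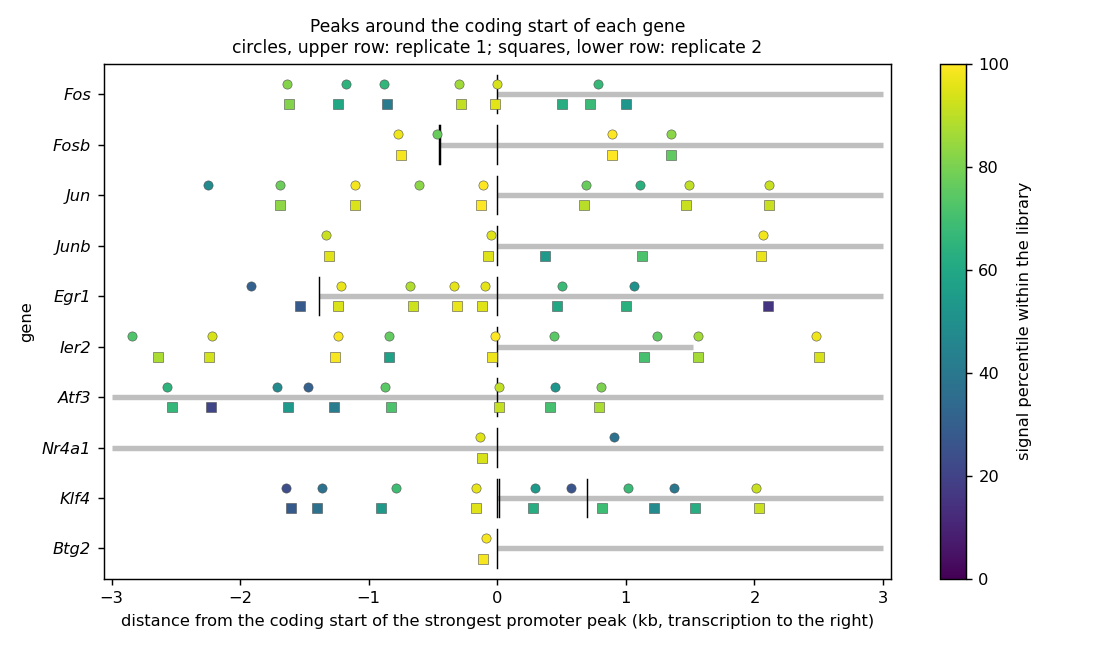
Peaks within 3 kb of the coding start that carries each gene's strongest promoter peak, with the distance from that start in kb on the horizontal axis and transcription to the right. Circles (upper row) are replicate 1, squares (lower row) replicate 2, colour is the signal percentile within the library, black ticks are coding starts and grey bars the gene. Jun, Ier2 and Klf4 show peaks on both sides of the start, whereas Btg2 shows 1 peak in each replicate.

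Hotspots, the wider deposited regions with a −log10 q value, gave the same picture of open promoters and added their width. A hotspot reached within 1 kb of a coding start in both libraries at all 10 genes. The share of all genes that meet this rule was not computed. The value of the promoter hotspot was at the ceiling of 100 in both libraries at 9 of the 10 genes, against 60.1% of all genes. That background includes genes without an open promoter, since only 66.8% of all genes had a shared promoter peak. The share among genes with an open promoter was not computed, so 9 of 10 does not set these genes apart. The exception was Junb, whose promoter hotspot was at 6 in replicate 1 and at 100 in replicate 2. Over promoters, bodies and 50 kb on either side the 10 genes held 189 hotspots in replicate 1 and 182 in replicate 2. Of these 55.6% and 52.7% were at the ceiling, against 37.8% and 35.9% of all hotspots. The hotspots of the 10 genes include those at their own promoters and at promoters of neighbouring genes, whereas the background is every hotspot of the library. No share was computed around other genes with an open promoter, so this difference cannot be called particular to the group.

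Several of the short genes were open over much of their length. Jun, a gene without introns, lay under 1 hotspot of 4308 bp in replicate 1 and 4306 bp in replicate 2, which covered 76.2% and 76.8% of the gene and ran on upstream. Only 0.798% and 1.24% of all hotspots were 2 kb or wider. Hotspots covered 84.6% and 75.2% of Ier2, also a single-exon gene and the shortest of the group at 1522 bp, 41.7% and 42.4% of Egr1, and 40.7% and 46.0% of Klf4. At Klf4 replicate 2 merged into 1 hotspot of 3622 bp what replicate 1 held as several. These 4 of 10 genes passed 25% cover in both libraries, against 3.88% of all genes. Fos reached 12.9% and 32.0% and Junb 16.2% and 38.7%, so each passed that level in replicate 2 only. Fosb was covered to 15.6% and 18.6%, Atf3 to 10.97% and 10.1%, Btg2 to 3.8% and 10.6%, and Nr4a1 to 5.1% and 5.4%.

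All but Atf3 and Nr4a1 are short genes, and such cover was more common in short genes with an open promoter than over all genes. The median length was 4698.5 bp over the 10 genes and 17380 bp over all genes. Among 2581 genes no longer than Fosb (7356 bp) with a shared promoter peak, 28.2% passed 25% cover in both libraries, and of the 8 immediate early genes in that class 4 did. The median cover in that class was 28.5% and 40.6% for the 8 genes and 16.03% and 18.3% for all. The restriction to short genes with an open promoter thus raised the background share, and the 2 libraries gave different medians for the same 8 genes.

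Inside the gene bodies, outside the promoter windows, 7 of 10 genes had a shared peak, against 46.9% of all genes. The strongest was in Junb at +2057 bp, with signals of 120 and 115, above those of its promoter peak in both libraries. Jun had 2 body peaks at or above the 90th percentile, at +2111 bp in its untranslated region with signals of 97 and 93, and at +1481 bp with 94 and 92. The coding exon peak of Klf4 at +1329 bp from the third start had 97 and 94, and that of Fosb in its untranslated region, at +5629 bp, had 89 and 82. Ier2 at +1191 bp had 68 and 55, and Egr1 at +1034 bp from the second start had 47 and 48. Atf3, by far the longest of the genes at 47744 bp, had 7 shared body peaks, of which the strongest, at −2551 bp from the second start, reached only 57 and 51. Fos, Nr4a1 and Btg2 had 0 shared body peaks.

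The motifs printed in capitals were counted in all 26 shared promoter peaks of the group, on both strands, and beside the 14594 genes with a shared promoter peak. Shares and counts of genes used the central 150 bp of each shared peak. Positions and numbers of matches per gene used the whole shared peak. A match is a run of letters and not a measured binding site. The CArG box was found in any promoter peak of 3 of 10 genes, Fos, Fosb and Egr1, against 1.32% of genes. In the strongest promoter peak it was found in 1, Egr1, against 0.569%. A gene with more promoter peaks can match more easily in any of them. The 10 genes had a median of 2 shared promoter peaks, against 1 over all protein-coding genes, which include genes without any. The median over the 14594 genes with a shared promoter peak was not computed. Fos held 1 match, from −309 to −300 bp, Fosb held 1, from −266 to −257 bp, and Egr1 held 5, all upstream of its second start. At Fos and Fosb the match lay upstream of the first start and not in the strongest promoter peak. Fosb also held core CRE letters on both sides of its CArG box, as did Fos.

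The core CRE letters occurred in the strongest promoter peak of 6 of 10 genes, Fos, Fosb, Junb, Ier2, Atf3 and Nr4a1, against 23.4% of genes. The full CRE (TGACGTCA), which contains the core letters on both strands, occurred in 1, Ier2, from −45 to −38 bp, against 3.17% of genes. No RefSeq promoter entry was matched for Ier2 or Egr1. Of the 26 shared promoter peaks 50% held the core letters, against 17% of all 27725 shared promoter peaks. These shares rest on few peaks that cluster by gene, since over whole shared peaks Fos alone held 6 matches and Fosb 5.

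The other letters were counted in the same way. SP/KLF letters (GGGCGG), which can overlap EGR letters, occurred in the strongest promoter peak of 8 of 10 genes, all but Junb and Ier2, against 55.4% of genes. EGR letters occurred in any promoter peak of 3 genes, Egr1, Nr4a1 and Klf4, against 6.8%. They occurred in the strongest promoter peak of 2, Nr4a1 and Klf4, against 4.5%. ETS letters (CCGGAA) were found in the strongest promoter peak of 2, Egr1 and Nr4a1, against 19.4%. In any promoter peak they were found in the same 2, against 26.6%. The CCAAT box was found in the strongest promoter peak of 5, Jun, Junb, Egr1, Atf3 and Btg2, against 29.2%. In any promoter peak it was found in 6, with Klf4 added, against 39.2%. At Jun, Junb and Btg2 it began at −65, −66 and −69 bp. TATAAA was found in the strongest promoter peak of 2, Fos from −33 to −28 bp and Junb from −30 to −25 bp, against 2.17%. In any promoter peak it was found in the same 2, against 5.06%. The AP-1 letters (TGANTCA), through which FOS and JUN proteins act, were found in any promoter peak of 1, Klf4, against 4.47%. In the strongest promoter peak they were found in 0, against 1.73%. Over the 8 genes with a RefSeq promoter entry (GRCm38.p6) the median observed-to-expected CpG ratio was 0.801 and the median GC content 66.8%. Over all 27018 genes with an entry, open or not, the medians were 0.415 and 53.3%. A gene with several entries took its highest value. No value was computed for genes with an open promoter, so CpG richness cannot be called particular to this group.

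The surroundings held more open regions than those of most genes. A distal peak here is one in the body or within 50 kb of the gene and more than 1 kb from every protein-coding start of any gene. The median was 12 shared distal peaks per immediate early gene, against 5 over all genes, whose middle 50% ran from 2 to 9. All genes here include those without a promoter peak. The count around genes with an open promoter was not computed. Ier2 had the most, with 29 in replicate 1, 28 in replicate 2 and 23 shared, and 97.3% of all genes had fewer. Egr1 had the fewest, with 11 in each library and 7 shared, inside the middle 50%, and so was Klf4 with 11, 8 and 8 shared. The other 7 genes had from 11 to 18 shared distal peaks, all above the middle 50%. The 134 distal peaks were each counted once, since no windows of 2 members overlapped.

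**Figure D3:**
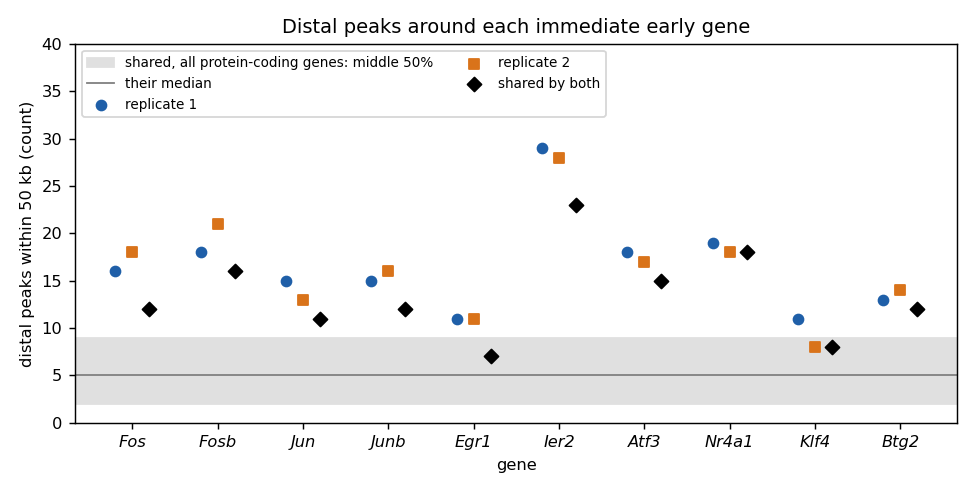
Number of distal peaks within 50 kb of each immediate early gene (vertical axis) in replicate 1, in replicate 2 and shared by both, over the middle 50% and the median of shared distal peaks of all protein-coding genes. Ier2 is highest with 23 shared and Egr1 lowest with 7, and 8 of 10 genes lie above the grey band.

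Which gene these distal peaks belong to was not measured, and the genes differ in how crowded their surroundings are. Fos, Jun and Klf4 have 0 other protein-coding genes starting within 50 kb, so their 12, 11 and 8 distal peaks have few other near starts. Junb has 9 such neighbours, Fosb 6, Nr4a1 and Ier2 3 each, Btg2 2, and Atf3 and Egr1 1 each. The immediate early gene's own start was the nearest for 85 of the 134 peaks, and this share ran from 12 of 12 at Fos and 19 of 23 at Ier2 to 5 of 18 at Nr4a1 and 3 of 12 at Junb. The flanks of Fosb and Junb held in addition 12 and 11 shared peaks at promoters of other genes.

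The distal peaks were also stronger than most distal peaks. Their median percentile, averaged over both libraries, was 80.9, against 59.5 for the 64773 distal shared peaks within 50 kb of a gene with a shared promoter peak. Of the 134 peaks 37, or 27.6%, had a mean percentile of 90 or more, against 6.58% of those near genes with an open promoter. Ier2 contributed 10 of the 37, Btg2 6, and Fos, Fosb and Nr4a1 4 each, so that 5 genes held most of them. Within the group Btg2 had the highest median percentile, 89.9, over 12 peaks, and Atf3 the lowest, 55.6, over 15. Neighbouring peaks are not independent of each other, and no test was made.

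**Figure D4:**
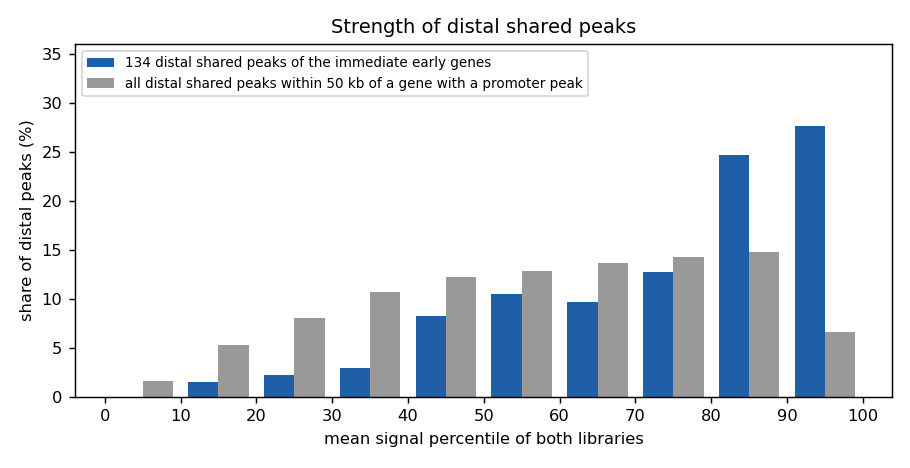
Share of distal shared peaks (vertical axis, percent) by the mean signal percentile of both libraries (horizontal axis, in steps of 10) for the 134 peaks around the immediate early genes and for all those within 50 kb of a gene with a shared promoter peak. In the top step the shares are 27.6% and 6.58%.

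The strongest distal peak exceeded the strongest promoter peak in both libraries at Fos, Junb, Atf3 and Nr4a1, in 1 library at Ier2, and in neither at the other 5 genes. Upstream of Nr4a1, the intergenic peak chr15:101246376-101246565 at −7798 bp had signals of 135 and 134, at percentiles 99.9 and 99.8, above both promoters of the gene. At Fos the intergenic peak chr12:85455316-85455485 at −18489 bp had 127 and 128, at percentiles 99.2 and 99.1, and exceeded the Fos promoter in both libraries. Fos also had intergenic peaks downstream, at +12231 bp with 121 and 126, at +14021 bp with 104 and 97, and at +18341 bp with 104 and 98. Fos therefore had 2 distal peaks above its own strongest promoter signal in both libraries.

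Around the other AP-1 genes, the strongest distal peak of Fosb, chr7:19320076-19320245 at −10110 bp, lay in an exon of the noncoding gene D830036C21Rik and had signals of 125 and 122. That of Jun, chr4:95053256-95053405 at −1109 bp, lay in an exon of the noncoding gene Junos and had 122 and 105, under the same wide hotspot as the promoter. At Junb it was the body peak already described. In both libraries the strongest distal peak was below the promoter peak at Fosb and at Jun, and above it at Junb, each compared within its own gene.

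At Ier2 the strongest distal peak, chr8:84639536-84639685 at +23241 bp, lay in a coding exon of the calcium channel gene Cacna1a, with signals of 124 and 132 at percentiles 98.7 and 99.7. A hotspot of 2033 bp in replicate 1 and 2381 bp in replicate 2 covered it. Between it and Ier2 lay 5 more shared peaks with a mean percentile of 90 or more, at +15291, +7051, +6561, +5911 and +2491 bp. Upstream 4 lay at −1249, −2229, −46519 and −49789 bp. Of all 23 shared distal peaks of Ier2, 16 were on its downstream side.

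For the remaining genes, too, distal peaks were ranked by the mean percentile of both libraries. Btg2 had peaks at −13981 bp with signals of 118 and 111, at +18059 bp with 114 and 115, and at −20231 bp with 106 and 101. Atf3 had 1 strong distal peak, at −6382 bp from the first start, with 111 and 114, which was above its promoter peak in both libraries although 0 peaks lay at that start. The strongest distal peak of Klf4, at +16889 bp from the third start, had 96 and 100. That of Egr1, at −9522 bp, had 107 and 95. These last 2 were below the promoter peak of their gene in both libraries. At Btg2, Klf4 and Egr1 the libraries ranked different shared distal peaks first. In replicate 1 the Klf4 body peak at +1329 bp, with 97, was above the one named here. In replicate 2 an Egr1 peak at +26324 bp from the second start, with 79 and 99, was above the one named here.

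**Figure D5:**
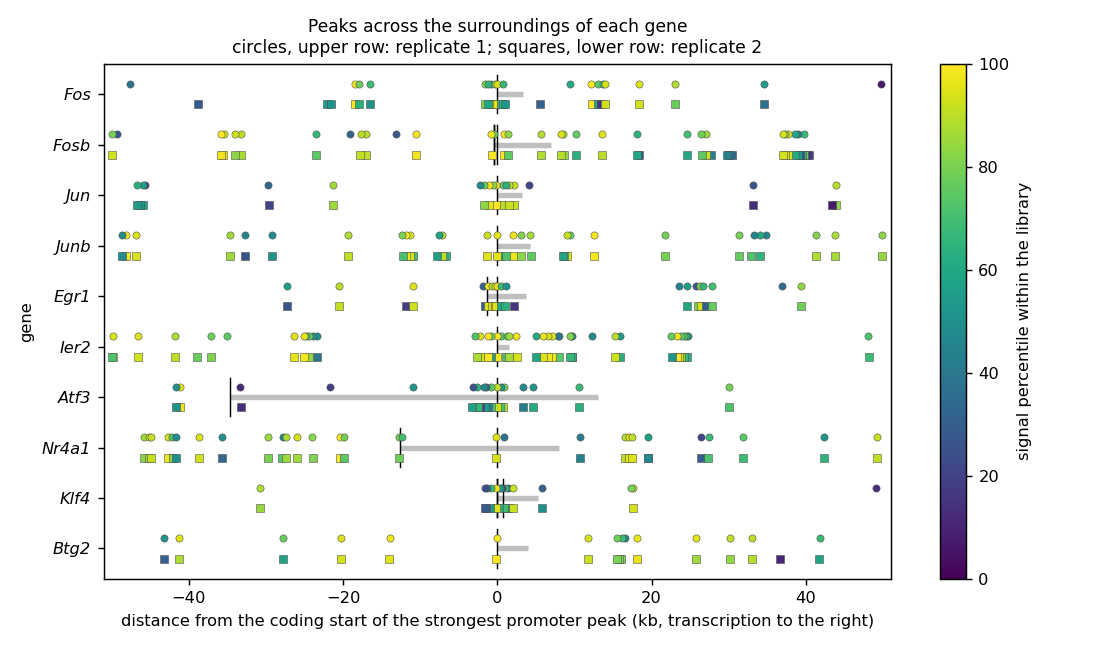
Peaks within 50 kb of the coding start that carries each gene's strongest promoter peak, drawn with the same symbols and colours (distance in kb on the horizontal axis). Fos, Jun and Klf4 show few clusters with wide gaps, while Fosb, Junb and Nr4a1 show peaks across the whole span, including those at promoters of neighbouring genes.

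The distal peaks were searched for the same motifs. SP/KLF letters occurred in 21.6% of the 134 peaks, against 7.26% of the 90765 distal shared peaks with sequence, and the core CRE letters in 16.4% against 6.73%. The CCAAT letters occurred in 27.6% against 19.3%. AP-1 letters occurred in 5.22% against 4.59%, the CArG box in 3 peaks, or 2.24%, against 1%, and TATAAA in 3.73% against 8.01%. ETS letters occurred in 5.22% against 3.2%. The TATAAA share rests on 5 peaks and that of the CArG box on 3. The background here is all distal shared peaks and not only those near genes with an open promoter, and no difference was tested.

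The replicates matched each other more often at these genes than over all peaks. The promoters, bodies and flanks held 241 peaks in replicate 1 and 243 in replicate 2, of which 83.0% and 82.3% overlapped a peak of the other library, against 69.8% and 73.1% of all peaks. In the flanks the shares were 84.9% and 83.2%, and in the bodies 80% and 76.2%, against 68.8% and 71.3% of all peaks away from promoters. The flank peaks include some at promoters of other genes, which that background leaves out. At promoters the shares were 74.3% and 81.3%, against 73.3% and 79.96% of all promoter peaks. The distal peaks of these genes were also stronger than most, and the part of signal in this agreement was not tested. Over 200 overlapping pairs the percentile differed between libraries by a median of 3.31 points, against 6.30 over 121791 pairs of the whole genome.

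Peaks found in 1 library only numbered 41 in replicate 1 and 43 in replicate 2, with median percentiles of 45.5 and 50.8. In replicate 1 the strongest lay at −609 bp of Jun with a signal of 79. In replicate 2 it lay at +23521 bp of Ier2 also in coding sequence of Cacna1a, with a signal of 105, next to the shared peak there and under the same hotspot. Of the 9 private promoter peaks in replicate 1 and 6 in replicate 2, 3 and 3 were at Klf4.

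A wider list held 49 related primary response genes. Of these, 47 had a shared promoter peak and the exceptions were Npas4, a neuronal factor, and Rgs1, a regulator of G protein signalling in leukocytes. In 38, or 77.6%, the strongest promoter peak was at or above the 90th percentile in both libraries. A shared body peak was found in 27, or 55.1%, and a promoter hotspot at the ceiling in both in 46. The 25% level of hotspot cover was passed in both by 19. Over all protein-coding genes 66.8% had a shared promoter peak, 44.6% reached that percentile and 46.9% had a shared body peak. The ceiling was reached by 60.1% and that cover by 3.88%. The median length of the 49 genes was 5799 bp, against 17380 bp over all genes, and such cover was more common in short genes. The highest promoter percentiles were those of Dusp6, a phosphatase of ERK, with 99.9 and 99.5, of Hes1, a Notch target, with 99.3 and 99.7, and of Per1, a clock gene, with 99.7 and 99.3. Per1 and Zfp36l1, a messenger RNA decay factor, had the most shared distal peaks with 22 each, and Dusp6 had 21. The median of shared distal peaks over the 49 genes was 9, against 12 for the immediate early genes, and the difference between the lists was not tested.

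Every gene on the list of upstream regulators had an open promoter. All 23 had a shared promoter peak, against 66.8% of all genes, and a promoter hotspot at the ceiling in both libraries, against 60.1%. In 21 the strongest promoter peak was at or above the 90th percentile in both, against 44.6%. A shared body peak was found in 17, against 46.9%, and 1, Srf, passed 25% hotspot cover in both, against 3.88%. The median length of the 23 genes was 63722 bp, against 17380 bp over all genes, and body peaks were not compared at equal length. The highest promoter percentiles were those of Mrtfa, a coactivator of SRF, with 99.8 and 99.5, and of Crtc1, a coactivator of CREB, with 99.3 in both. Next came Rps6ka2, a kinase below ERK, with 99.3 and 99.0. The 2 genes that missed the 90th percentile in at least 1 library were Elk3, an ETS partner of SRF, with 84.5 and 84.7, and Crtc3 with 87.7 and 92.9. The median over the 23 genes was 98.3, above the 96.1 of the immediate early genes.

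The tissue label was set beside promoter peaks of marker genes. A shared promoter peak was present at 66.8% of all protein-coding genes. All 10 markers of limb mesenchyme had one, while 0 of 10 markers of erythroid cells, macrophages and liver did. So did 4 of 5 markers of surface ectoderm, 2 of 3 of muscle precursors and 1 of 4 of endothelium (Kdr). With so few markers and that background, these last 3 counts cannot show whether those cell types were present. The libraries held 174611 and 167550 peaks and 151790 and 144013 hotspots, and their read depth is unknown.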

How the data were processed

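DNase-seq of limb was deposited as a peak list and a hotspot list for each of 2 biological replicates, with coordinates on mm10 per the labels. The authors' peaks are at least 150 bp wide and carry a signal value from 2 to 149, of unknown scaling, so it was ranked within each library only (ties at the middle rank). The deposited hotspots carry −log10 q, which spans 1.30 to 6 and is otherwise 100, read as a ceiling. For the aligner and caller no name is given in the sources used here. These lists hold no read counts, so depth is unknown and no interval based on it is given.

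Coding starts came from GENCODE M21 (54361 starts of 21853 genes). By their centres, regions were promoter within 1 kb of a start of the gene, body if otherwise inside it, and flank if otherwise within 50 kb. Overlap meant at least 1 bp, which gave 118491 shared regions. In each library 181 peaks on sequences other than the 21 named chromosomes were left out. Motifs were searched in the reference sequence of shared peaks, in the central 150 bp for shares and in the whole peak for positions. The 10 genes, the related list and the regulator list were chosen with earlier results of these data known, and the levels of the 90th percentile and of 25% cover after values had been seen. Named genes were all 10 members, the 3 related genes with the highest promoter percentile and the 3 with the most distal peaks, the 3 regulators with the highest percentile and any without a promoter peak, and single peaks were the strongest promoter, body and distal peak of each member. Npas4, Rgs1, Srf, Elk3, Crtc3 and further peaks were named after their values were seen. The steps were tested on simulated data. Python 3.11.15, NumPy 2.4.6 and Matplotlib 3.10.9 were used.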

Additional observations from a re-analysis of the deposited data

How the results depend on the processing

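All 10 genes kept a shared promoter peak with windows of 500 bp or 2 kb, with an overlap of 75 bp, with peaks above the median signal and in either library alone (10 and 10), and 9 did with 1 start per gene, where Atf3 lost it. The median percentile of the strongest promoter peak, 96.1, was 95.8 with 1 start per gene and 84.4 when ranked among promoter peaks only, and ran from 96.0 to 96.4 without 1 replicate each. Genes with a shared body peak, 7, were 4 with a 2 kb window and 4 with hotspots in place of peaks, and 7 to 8 without 1 replicate each. The median of shared peaks outside the promoter windows, 14, was 15.5 with a 500 bp window, 13 with 2 kb, 16 with 1 start per gene, 12.5 with an overlap of 75 bp, 10.5 with peaks above the median, 10.5 with a reach of 25 kb, 23 with 100 kb and 12 with hotspots, and 17 to 17.5 without 1 replicate each. The 134 distal peaks became 89 with a reach of 25 kb and 164 to 165 without 1 replicate each, where sharing was no longer required. The shared portion of peaks, 82.6% on average, was 78.7% with an overlap of 75 bp, 87.3% above the median, 81.3% at 25 kb and 79.5% at 100 kb. Promoter hotspots were present at 10 genes without replicate 1 and at 10 without replicate 2. CRE, CArG, AP-1, EGR or SP/KLF letters were found in promoter peaks of 9 of 10 genes. They were found in 7 of the 8 genes with a RefSeq window from 250 bases before to 50 after the start. The share of all genes with any of these letters was not computed, so these counts do not set the group apart. SP/KLF letters alone occurred in any promoter peak of 66% of genes with a shared promoter peak. In the RefSeq windows they occurred in 38.2% of all genes. The CArG box, in promoter peaks of 3 genes, was in 0 of those 8 windows, and Egr1 has no window. The matches of Fos and Fosb begin at −309 and −266 bp of the coding start, which windows from 250 bases before a start did not reach. The absence of the box from the windows is therefore no check of those matches. The cause of the shifts between settings was not tested beyond what each setting changes by construction. No paired analysis was possible because there is only 1 group. Unknown depth limits every statement on absent peaks.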
